A study of Mus musculus with 8 samples.

Results

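Notch ligands, receptors and targets were examined in whole testes of mice, either wild type or VRK1-deficient. The members were 10 genes, namely the ligands Jag1, Jag2, Dll1 and Dll4, the receptors Notch1, Notch2, Notch3 and Notch4, and the targets Hes1 and Hey1. They were taken as the probes, other than controls, that carried one of these names in the array files, which gave 14 probes among 41174 and 10 gene symbols among 27670. Male mice were 8 days old, and total testis RNA carrying Cy3 was read on 1-color Agilent arrays, with 4 wild type and 4 VRK1-deficient biological replicates and 1 sample per array. VRK1-deficient mice carried a β-geo gene trap in an intron of Vrk1, and wild type mice did not. The trap came from 1 embryonic stem cell line, was crossed to C57BL/6 for several generations, and is hypomorphic, so that some full length VRK1 remains. It is present in every cell of the animal, so the arrays do not separate germ cells from somatic cells. In whole testis RNA, fewer cells of a type and less RNA per cell cannot be told apart.

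Notch receptors are cell surface proteins that are activated by ligands of the Jagged and Delta-like families on a neighboring cell. Ligand binding leads to cleavage of the receptor, first by an ADAM protease and then by γ-secretase, and the released intracellular domain enters the nucleus. There it joins RBPJ and Mastermind proteins and switches on genes such as those of the Hes and Hey families, which encode transcriptional repressors. In the testis, germ cells present Notch ligands to Sertoli cells, the somatic cells that nurse them, and Notch is also used by blood vessels and by Leydig cell precursors.

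Each array read the members through 60-base probes, of which the first 30 bases are printed here for the brightest probe of each gene, since every value below is the signal of these sequences. They are written 5′ to 3′.
Jag2 A_51_P451338: ttgtataaattattcaacggctgtcaggcg
Dll1 A_51_P306017: gattactatgagccagtctttccttgaact
Jag1 A_52_P634090: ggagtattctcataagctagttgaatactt
Dll4 A_51_P384402: tttgcccagactccatcctcacagctgggc
Notch1 A_51_P508510: ggcactaggggaaaaacatatctgttccaa
Notch2 A_52_P289213: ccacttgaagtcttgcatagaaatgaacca
Notch3 A_51_P220162: gcctaatagaaatgtttttaggctgttttt
Notch4 A_51_P195875: gttgatttcgagaatccctaaactctggaa
Hes1 A_51_P498093: acactgattttggatgcacttaagaaagat
Hey1 A_51_P258409: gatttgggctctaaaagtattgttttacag

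Probe positions follow build mm7, as the array files give them. The Jag2 probe lay at chr12_random:2920858-2920917 on the minus strand, and the Dll1 probe at chr17:13604553-13604612, also on the minus strand. The Hey1 probe lay at chr3:8669867-8669926 on the minus strand. On the minus strand were also the probes of Jag1 (chr2:136822550-136822609), Notch1 (chr2:26466563-26466621) and Notch3 (chr17:30311822-30311881). On the plus strand were those of Dll4 (chr2:119075892-119075951), Notch2 (chr3:98021215-98021274) and Notch4 (chr17:32669395-32669454). The Hes1 probe covered 296 bases of chr16, from 29738743 to 29739038 on the plus strand, although it is 60 bases long, so its sequence is split in the genome. Exon and UTR annotation of this build was not used here. Jag1 and Notch1 had 2 probes and Notch2 had 3. The Notch1 probes were neighbors that shared 1 base of the genome, whereas the Jag1 probes started 1509 bases apart. The probes of Dll1 and of Notch1 (A_51_P508510) were each spotted 10 times on every array.

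All values are log2 signals minus the log2 of the 75th percentile of the same array, so 0 is the level of that percentile. They are not comparable between probes. A probe entered the limma test when 4 or more of the 8 arrays put it well above background, which held for 26948 of 41174. Adjustment was by Benjamini-Hochberg over these 26948 probes, and a probe with an adjusted p below 0.05 counts as called. The 75th percentile lay between 642 and 848 on wild type arrays and between 548 and 745 on VRK1-deficient arrays. Between 63.6% and 69.5% of spots were well above background, and the number of arrays limits the precision. Both probes of Vrk1 were lower on all 4 VRK1-deficient arrays, and the brighter probe (A_51_P102339) went from 0.16 ± 0.38 to -3.85 ± 0.27 (SD, n = 4 each). The arrays lay on 2 slides, with replicates 1 and 2 on slide 1 and replicates 3 and 4 on slide 2, and wild type and VRK1-deficient samples took different positions on both slides, so position and genotype cannot be told apart. Wild type replicate 1 stood apart from the other wild type arrays. Its correlation over tested probes was 0.987 to 0.990 with the VRK1-deficient arrays and 0.970 to 0.986 with the other wild type arrays. Calls of named genes that turn on it are given with and without it. Without it, 7641 probes were called instead of 982, whereas without any other array 3 to 68 were called.

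All 10 genes passed the filter on dim probes through their brightest probe, which was well above background on all 8 arrays. One member, the ligand Jag2, was called lower in VRK1-deficient testes, and no member was called higher. Over all tested probes, 3.64% were called either way, 1.97% lower and 1.68% higher. The methods' t-test at p up to 0.05, with a fold of 2 or more added here, was passed by Jag2 and Hey1, against 2.87% of all tested probes. By its p alone Jag1, Dll1, Dll4 and Notch2 passed too, and the share of all tested probes at that rule is not given here. The log2 difference was below 0 for 6 members and above 0 for 4, with a median of -0.05, while the median over all tested probes was 0.04 and 45.5% of them were below 0. The groups did not overlap for 3 of 10 members, Jag2 on the lower side and Jag1 and Dll4 on the higher side, against 16.7% of all tested probes (7.28% on the lower side and 9.43% on the higher side). The unadjusted limma p was under 0.05 for 6 members, against 28.8% of tested probes. The 3 members with the largest differences, all lower in VRK1-deficient testes, were 2 of the ligands, Jag2 and Dll1, and the target Hey1.

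**Figure D1:**
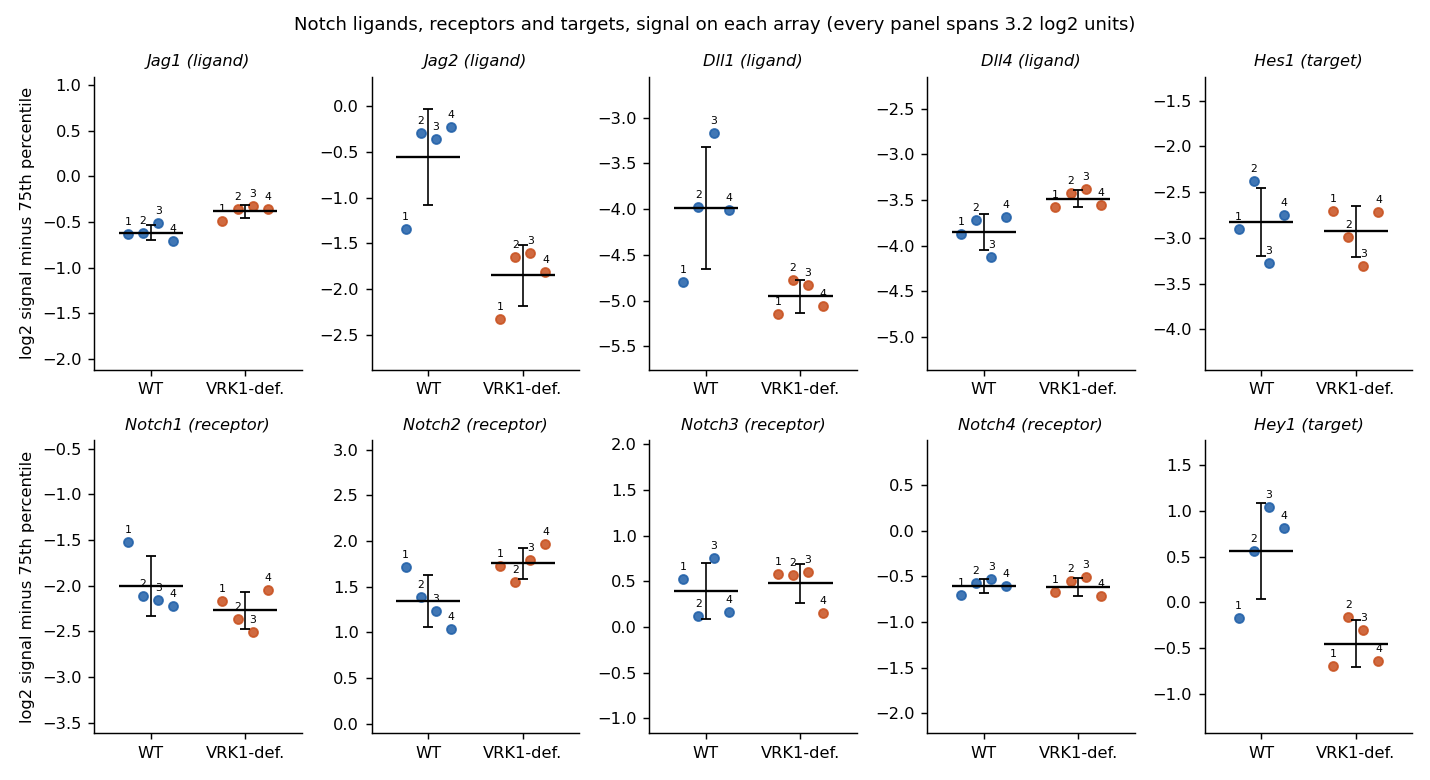
Log2 signal minus the 75th percentile of the array for the brightest probe of each of the 10 genes, with 1 point per array labeled by replicate number, the mean as a horizontal line and the SD as a bar (n = 4 per genotype). Jag2, Dll1 and Hey1 lay lower on VRK1-deficient arrays, and wild type replicate 1 was the lowest wild type array in each of them, at -1.34, -4.80 and -0.17.

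Jag2 encodes a Jagged family ligand. Its signal was -1.34, -0.29, -0.35 and -0.23 in wild type replicates 1 to 4. In VRK1-deficient replicates 1 to 4 it was -2.33, -1.64, -1.61 and -1.81. Every VRK1-deficient array was below every wild type array, and the gap was smallest against wild type replicate 1. The mean went from -0.55 ± 0.53 to -1.85 ± 0.33 (SD, n = 4 each), a log2 difference of -1.29 with SE 0.27, or 2.45-fold lower, with a limma adjusted p of 0.0474. The study listed this gene as lower on the same arrays, so the call is not independent evidence of its direction. The log2 difference was -1.17 on slide 1 and -1.42 on slide 2, and with slide as a block the adjusted p was 0.0487. Without wild type replicate 1 the log2 difference was -1.56 and the adjusted p 0.00341. When any other array was left out, the adjusted p lay between 0.0740 and 0.149, so the call was lost. The Jag2 probe is assigned to chromosome 12 (chr12_random), the chromosome of Vrk1. Any part of DNA carried along with the trap in the Jag2 values, or in those of any other gene here, was not tested.

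Dll1 encodes a Delta-like ligand. The mean of its 10 spots was -4.80, -3.98, -3.16 and -4.01 in wild type replicates 1 to 4. In VRK1-deficient replicates 1 to 4 it was -5.15, -4.78, -4.83 and -5.06. The 3 other wild type arrays were above all VRK1-deficient arrays, whereas wild type replicate 1 lay within their range. Dll1 differed by -0.97 on the log2 scale with SE 0.29, and it was not called (limma adjusted p 0.0796). Without wild type replicate 1 it was -1.24 with an adjusted p of 0.00677, and when another array was left out the adjusted p was 0.103 to 0.199. The difference was -0.58 on slide 1 and -1.36 on slide 2. With a normexp background correction, which changes dim spots most, it was -0.12.

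The repeated spots gave the error within an array. For Dll1 the SD between the 10 spots of an array was 0.11 to 0.27, whereas the SD between the 4 wild type arrays was 0.67 and that between the VRK1-deficient arrays was 0.18. The wild type spread of Dll1 was thus larger than the spread between spots of any array, and it lay at percentile 94.1 of all tested probes. Spots of Notch1 had an SD of 0.046 to 0.15 within an array, against 0.33 between the wild type arrays and 0.20 between the VRK1-deficient arrays.

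**Figure D2:**
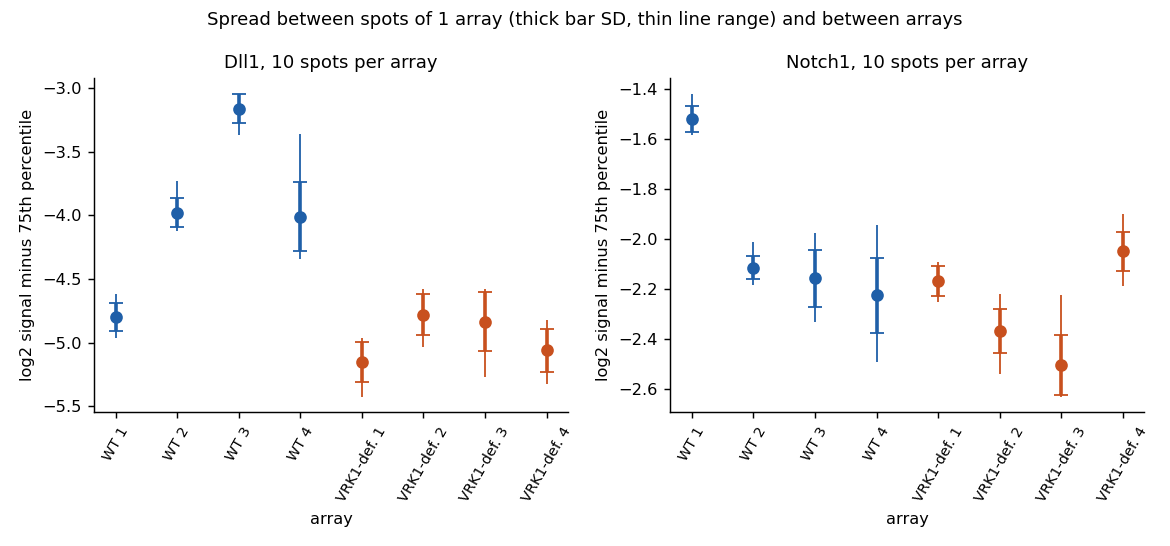
Mean log2 signal minus the 75th percentile over the 10 spots of Dll1 (left) and Notch1 (right) on each array, with the SD between spots as a thick bar and the range as a thin line. The spots of wild type replicate 3 of Dll1 averaged -3.16 and those of replicate 1 averaged -4.80, with SDs between spots of 0.12 and 0.11, and for Notch1 wild type replicate 1 stood highest at -1.52.

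Jag1 and Dll4, the other 2 ligands, lay on the other side of 0. Jag1 encodes the second Jagged ligand, and its brightest probe read -0.64, -0.62, -0.51 and -0.71 in wild type replicates 1 to 4 against -0.49, -0.36, -0.32 and -0.36 in VRK1-deficient replicates 1 to 4. All VRK1-deficient arrays were above all wild type arrays, by a small amount. Jag1 differed by 0.24 on the log2 scale with SE 0.10 and was not called (limma adjusted p 0.163). Its SD between wild type arrays was 0.083, at percentile 4.41 of all tested probes, so the small difference stood against a small spread. The second Jag1 probe (A_51_P280906) was not well above background on any array, and no fold is given for it.

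Dll4 encodes a Delta-like ligand best known from blood vessels. It read -3.87, -3.72, -4.13 and -3.69 in wild type replicates 1 to 4. The VRK1-deficient replicates 1 to 4 read -3.57, -3.42, -3.38 and -3.56. The groups did not overlap. Dll4 differed by 0.36 on the log2 scale with SE 0.13 (limma adjusted p 0.109), which was not called. The 8 endothelial markers summed to 8.86 to 10.9 in wild type and 9.09 to 10.3 in VRK1-deficient testes, in units of the 75th percentile, and 7 of 8 had a log2 difference above 0 with none called. Egfl7, the exception at -0.28, had the highest signal of the 8 (wild type mean 2.41) and weighs most in the sum. The part of blood vessels in the Dll4 values was not tested.

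The 4 receptors had no called difference. Notch1 read -1.52, -2.12, -2.16 and -2.22 in wild type replicates 1 to 4 and -2.17, -2.37, -2.50 and -2.05 in VRK1-deficient replicates 1 to 4. The groups overlapped, and wild type replicate 1 stood above all other arrays. Notch1 differed by -0.27 on the log2 scale with SE 0.18 (limma adjusted p 0.348). It was -0.11 without wild type replicate 1. The second probe (A_52_P183088) gave -0.24 with SE 0.19 and an adjusted p of 0.416.

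Notch2 read 1.72, 1.39, 1.23 and 1.04 in wild type replicates 1 to 4 with its brightest probe. The VRK1-deficient replicates 1 to 4 read 1.73, 1.55, 1.79 and 1.96. Wild type replicate 1 lay among the VRK1-deficient arrays, and the 3 others were below all of them. Notch2 differed by 0.41 on the log2 scale with SE 0.16 (limma adjusted p 0.138), and without wild type replicate 1 it was 0.54 with an adjusted p of 0.0230. On slide 1 it was 0.08 and on slide 2 it was 0.74. The probes disagreed in size. The probe A_51_P216397 gave 0.32 with an adjusted p of 0.333, and A_52_P448796 gave -0.0048 with an adjusted p of 0.993. Without wild type replicate 1, A_51_P216397 was called with an adjusted p of 0.0244 and A_52_P448796 was not, with 0.532.

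Notch3, a receptor of vascular smooth muscle, read 0.53, 0.12, 0.76 and 0.16 in wild type and 0.58, 0.57, 0.60 and 0.15 in VRK1-deficient replicates 1 to 4. The arrays of both genotypes covered much the same range. The log2 difference was 0.08, with a 95% interval of -0.32 to 0.48. Notch4, a receptor of endothelium, read -0.71, -0.58, -0.53 and -0.61 in wild type and -0.68, -0.55, -0.51 and -0.71 in VRK1-deficient replicates 1 to 4. The arrays differed little in either genotype. Its log2 difference was -0.01, with a 95% interval of -0.24 to 0.23, the narrowest among the receptors. A difference beyond these intervals was thus not seen for Notch3 and Notch4, but smaller ones remain possible.

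The direction of both values close to 0 is not settled. Notch4 had the other sign with quantile normalization (0.0044), normexp correction (0.043) and on slide 1 (0.029). Notch3 had the other sign without scaling between arrays (-0.096) and on slide 2 (-0.085).

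The targets gave unlike values. Hey1 encodes a repressor that Notch induces, and it read -0.17, 0.57, 1.04 and 0.81 in wild type replicates 1 to 4. In VRK1-deficient replicates 1 to 4 it read -0.70, -0.16, -0.30 and -0.64. All arrays but 1 of each genotype were separated, since VRK1-deficient replicate 2 lay just above wild type replicate 1. The mean went from 0.56 ± 0.53 to -0.45 ± 0.26 (SD, n = 4 each), a log2 difference of -1.01 with SE 0.25, and the limma adjusted p of 0.0575 missed the threshold. Hey1 was called without wild type replicate 1 (-1.26, adjusted p 0.00388) and on slide 2 alone (-1.40, adjusted p 0.0391). It was also called without scaling (0.0412), with normexp correction (0.0433), with the filter on all 8 arrays (0.0473), with an intensity trend (0.0415) and with the replicate block (0.0335). With slide as a block it was not (0.0548), nor with quantile normalization (0.0595), no filter on dim probes (0.103) or the mean of all probes (0.0514). The methods' t-test after Benjamini-Hochberg gave an adjusted p of 0.115. On slide 1 Hey1 was at -0.63 (limma adjusted p 0.524). Without any other array its adjusted p was 0.0850 to 0.164.

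Hes1, the repressor most often used as a readout of Notch, read -2.90, -2.38, -3.28 and -2.75 in wild type replicates 1 to 4. The VRK1-deficient replicates 1 to 4 read -2.71, -2.99, -3.30 and -2.72. The groups overlapped. Hes1 differed by -0.10 on the log2 scale with SE 0.21 (limma adjusted p 0.775), with a 95% interval of -0.57 to 0.37, and its sign turned with normexp correction (0.070) and on slide 2 (0.0070). The difference between the changes of Hey1 and Hes1 was not tested.

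**Figure D3:**
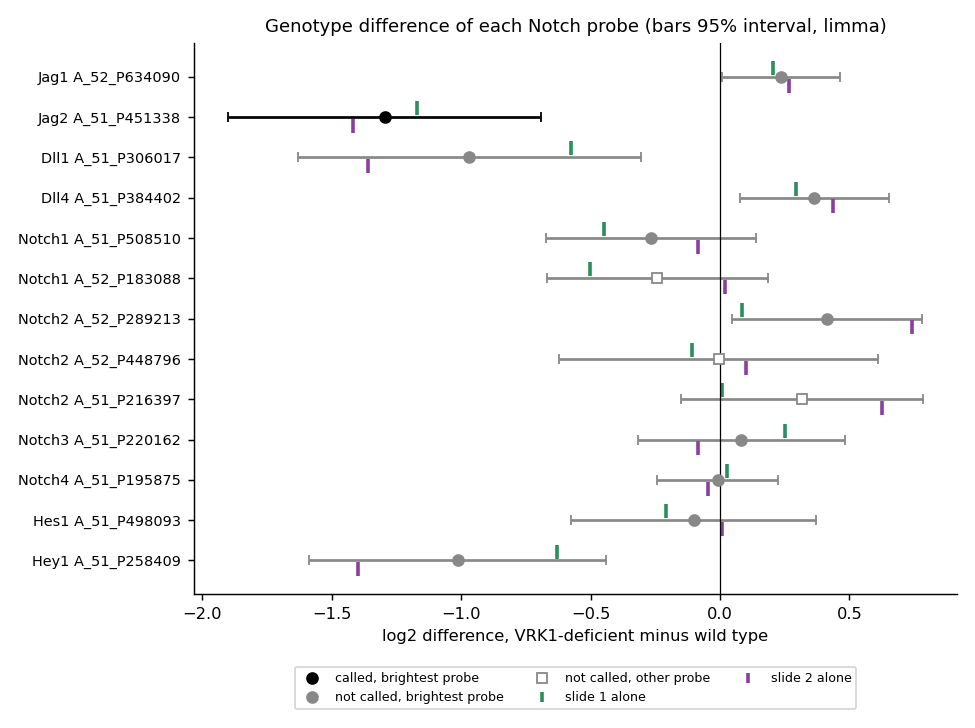
Log2 difference (VRK1-deficient minus wild type) of the 13 tested probes of the 10 genes, with the 95% interval from limma as a bar, the brightest probe of a gene as a filled circle, and the difference on each slide alone as a tick. Jag2 at -1.29 is the called probe in black, and the intervals of Dll1 and Hey1 also lie below 0 although their adjusted p values were 0.0796 and 0.0575.

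Other genes of the pathway were followed in lists by their role, 58 genes in all, of which 56 were tested. Among them 2 were called lower, Hes5 and Nrarp, and none was called higher, against 1.97% and 1.68% of all tested probes. A log2 difference below 0 was seen in 20 of them and above 0 in 36. Their median was 0.13, against 0.04 over all tested probes. The groups did not overlap for 6 of 56, against 16.7% of all tested probes. The number called was 15 of 56 without wild type replicate 1, against 7641 of 26948 tested probes. Of the 56, 54 were well above background on all 8 arrays, whereas Hes7 and Hey2 were so on 1 VRK1-deficient array. Both passed the filter mainly through the wild type arrays, so they are named without values. They are among the 20 genes below 0 and count in the median, and Hes7 is among the 15.

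Hes5, a repressor of the Hes family, had the largest called difference in these lists. It read 0.00, 1.35, 1.37 and 1.14 in wild type replicates 1 to 4. In VRK1-deficient replicates 1 to 4 it read -0.88, -0.18, -0.38 and -0.69. No VRK1-deficient array reached the lowest wild type array, which was replicate 1. The mean difference of Hes5 was -1.50 on the log2 scale with SE 0.31, or 2.82-fold lower (limma adjusted p 0.0473). It was -1.20 on slide 1 and -1.79 on slide 2. Without wild type replicate 1 it was -1.82 with an adjusted p of 0.00322, and without any other array the adjusted p was 0.0736 to 0.147.

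Nrarp encodes an ankyrin repeat protein that is itself a Notch target and limits the pathway. It read -1.67, -1.43, -1.15 and -1.65 in wild type replicates 1 to 4 and -2.11, -2.01, -2.02 and -2.15 in VRK1-deficient replicates 1 to 4. The genotypes were separated, and the VRK1-deficient arrays lay close together. Nrarp fell by 0.60 on the log2 scale with SE 0.14, or 1.51-fold lower (limma adjusted p 0.0499). Without wild type replicate 1 it was -0.66 with an adjusted p of 0.0109. Leaving out any other array ended the call, with adjusted p values of 0.0663 to 0.152. So did slide as a block (0.0550), quantile normalization (0.0588), no scaling (0.0612) and normexp correction (0.0947).

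Among the 10 other targets Hes5 was the called gene. No median is given for them, since Hes7 and Hey2 are among the 10. Id1, an inhibitor of basic helix-loop-helix factors, gave 0.56 with SE 0.21 (limma adjusted p 0.129). Among the 10 inhibitors and turnover genes the median was 0.01, with Nrarp called. Dtx2, a Deltex ubiquitin ligase, was lower on every VRK1-deficient array than on any wild type array but was not called (-0.61, adjusted p 0.0583). It was called without wild type replicate 1, at -0.73 with an adjusted p of 0.00661. On the same terms, 5 of the 10 inhibitors and turnover genes and 3 of the 10 other targets were called. Over all tested probes it was 7641 of 26948. The inhibitors and turnover genes were Dtx2, Nrarp and Fbxw7 (-0.40), all lower, and Dtx1 (0.44) and Dtx3 (0.69), both higher. The other targets were Hes5, lower, Bhlhe40 (0.68), higher, and Hes7, which passed the filter mainly through the wild type arrays.

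The other ligands were 5 genes, of which 4 were tested and none was called. Dll3, a Delta-like protein that does not activate receptors from a neighboring cell, ranged from -2.92 to -0.85 in wild type and from -3.72 to -2.76 in VRK1-deficient testes. The lowest wild type array was replicate 1, which lay inside the VRK1-deficient range. Dll3 differed by -1.63 on the log2 scale with SE 0.42 (limma adjusted p 0.0593), and without wild type replicate 1 it was -2.08 with an adjusted p of 0.00322. Dlk1, a Delta-like protein without the domain that binds Notch in other ligands, had a log2 difference of 0.48 with its brightest probe (adjusted p 0.0627) and of 0.53 with the other (adjusted p 0.0888). The brightest probe did not overlap between genotypes, and without wild type replicate 1 it was called, at 0.57 with an adjusted p of 0.00893.

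The machinery that prepares, cleaves and relays the signal had no called gene, against 1.97% of all tested probes called lower and 1.68% called higher. The median over all tested probes was 0.04, and 45.5% of them were below 0. Among 9 tested genes of receptor cleavage, 8 had a log2 difference above 0 and the median was 0.22. Adam10, the protease of the first activating cut, was the exception at -0.43 (limma adjusted p 0.143), a sign that turned with normexp correction (0.015), and Psen2, a catalytic subunit of γ-secretase, was at 0.30 (adjusted p 0.174). Of 9 genes for sugar modification of receptors and endocytosis of ligands, 7 were above 0, with a median of 0.21. Mfng, a Fringe glycosyltransferase, was at -0.23 (adjusted p 0.319), and Neurl1b, a ubiquitin ligase, was at 0.27 (adjusted p 0.327). Of 12 genes of the nuclear complex, 8 were above 0, with a median of 0.10. The Mastermind coactivators Maml2 and Maml3 were at 0.49 and 0.67 (adjusted p 0.141 and 0.122). Over all tested probes, 7641 of 26948 were called when wild type replicate 1 was left out. In that setting 1 cleavage gene and 3 genes of the nuclear complex were called. These were Adam10 at -0.56 (adjusted p 0.0258), Maml2 at 0.63 (0.0297), Maml3 at 0.83 (0.0335) and Rbpj, the DNA-binding partner of the receptor domain, at -0.43 (0.0474).

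Gdnf and Cyp26b1, which are reported to act downstream of Notch in Sertoli cells, were looked at as outputs. Gdnf, a growth factor for spermatogonial stem cells, ranged from -4.13 to -2.36 in wild type and from -2.50 to -2.08 in VRK1-deficient testes. The highest wild type array was replicate 1. The log2 difference was 1.17 with SE 0.34 and was not called (limma adjusted p 0.0727), and without wild type replicate 1 it was 1.53 with an adjusted p of 0.00353. The study named Gdnf as higher on these arrays, so its direction is not independent evidence. Cyp26b1, an enzyme that degrades retinoic acid, had a log2 difference of -0.03 (adjusted p 0.915), and its sign turned on slide 2 (0.017) and without wild type replicate 1 (0.067).

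**Figure D4:**
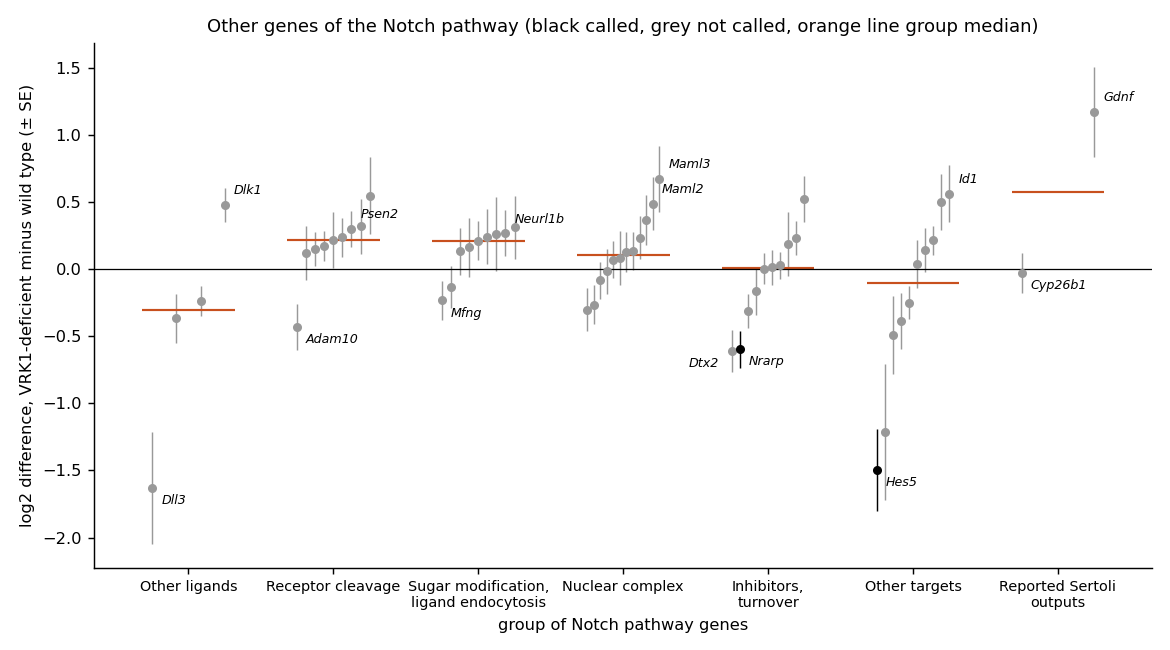
Log2 difference (VRK1-deficient minus wild type, with SE) of the 56 tested pathway genes outside the 10 members, grouped by role, with called genes in black and the median of each group as an orange line. Hes5 at -1.50 and Nrarp at -0.60 were called, whereas Dll3 at -1.63 and Gdnf at 1.17 were not. The line of the other targets includes Hes7 and Hey2, which passed the filter mainly through the wild type arrays and pull it down.

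The promoter of Hes5, the called target of the lists, is printed because it holds the core sequence bound by RBPJ on both strands. It is the 250 bases before the start of Hes5 in RefSeq (GRCm38.p6, chr4:154960673-154960922, plus strand), with TGGGAA and its reverse complement in capitals.
Hes5 promoter: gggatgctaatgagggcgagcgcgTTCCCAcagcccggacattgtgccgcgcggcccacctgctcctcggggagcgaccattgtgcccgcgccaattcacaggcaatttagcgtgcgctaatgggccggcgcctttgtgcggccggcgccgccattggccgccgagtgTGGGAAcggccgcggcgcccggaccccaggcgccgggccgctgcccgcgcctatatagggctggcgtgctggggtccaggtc
The matches began 226 and 82 bases before the start. A window was found for 8 of the 10 members, all but Hes1 and Hey1, and for 45 of the 58 list genes. Some genes have several starts, so these genes had 9 and 64 windows. TGGGAA, sought on both strands, was in 0 of the 9 windows of members and in 14 of the 64 windows of list genes (21.9%), against 21.6% of all 32851 windows. Nrarp, the other called list gene, had no match. The E-box CACGTG, bound by Hes and Hey proteins, was in 0 of 9 and 4 of 64 windows, against 6.02% of all windows. The N-box CACNAG, also sought on both strands, was in 4 of 9 windows of members, those of Dll4, Notch1, Notch2 and Notch3, and in 17 of 64 windows of list genes (26.6%), against 36.7% of all windows. These are matches of letters and not sites of binding.

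The cell types that send and receive Notch signals were checked with marker lists. Germ cell markers were 8 genes, of which 7 had a probe, and Dazl and Stra8 among them were listed by the study as lower. All 7 were well above background on every array and lower in VRK1-deficient testes, with a median log2 difference of -0.97, and none was called. Without wild type replicate 1 all 7 were called, against 7641 of 26948 tested probes. Their summed level, in units of the 75th percentile, was 36.9 in wild type replicate 1, 84.4 to 119 in the other wild type arrays and 22.9 to 46.4 in VRK1-deficient arrays. Each sum adds linear signals, so its brightest probes weigh most. By wild type mean log2 signal these were Stra8 (5.35) and Tex101 (4.40) for germ cells, Clu (7.05) for Sertoli cells and Acta2 (6.70) for smooth muscle. Wild type replicate 1 thus lay within the VRK1-deficient range in summed germ cell markers. It did so too in Dll1, Dll3 and Hey1, lower in VRK1-deficient testes, and in Notch2, which was higher. In Jag2, Hes5 and Nrarp it lay above all VRK1-deficient arrays. It was the wild type array nearest to the VRK1-deficient mean in 44.7% of all tested probes. The 8 Sertoli markers summed to 178 to 254 in wild type and 227 to 268 in VRK1-deficient testes, with wild type replicate 1 highest among wild type, and 6 of 8 were above 0. The 6 Leydig markers summed to 33.6 to 51.1 and 44.1 to 57.2. The 7 smooth muscle and pericyte markers summed to 139 to 150 and 125 to 159, and the 4 macrophage markers to 2.60 to 3.55 and 3.11 to 3.57. Of the Sertoli, Leydig, endothelial, smooth muscle and macrophage markers none was called. With wild type replicate 1 left out, 6 of 8 Sertoli, 2 of 6 Leydig and 2 of 8 endothelial markers were called, and none of the smooth muscle or macrophage markers. These counts too stand against 7641 of 26948 tested probes. Among the Sertoli markers, Amh was then at 1.64 and Rhox5 at -1.42. The part of germ cell number in the values of Jag2, Dll1, Dll3, Hey1, Hes5 and Nrarp was not tested.

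**Figure D5:**
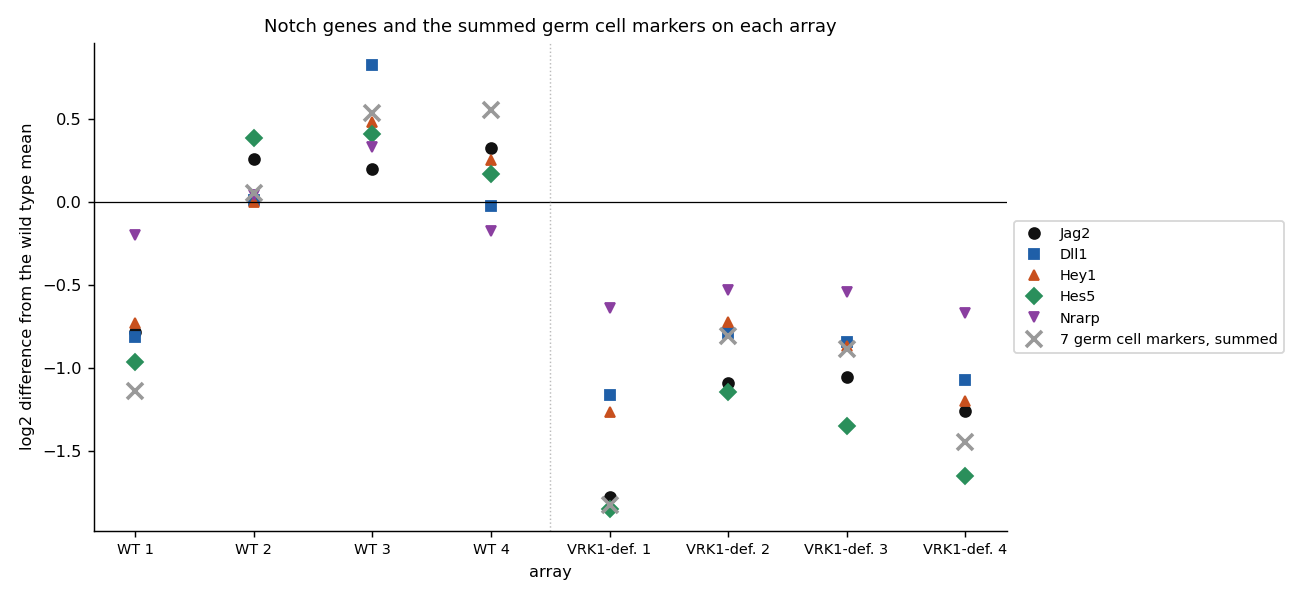
Log2 signal of Jag2, Dll1, Hey1, Hes5 and Nrarp on each array as the difference from the wild type mean, with the log2 of the sum of 7 germ cell markers as crosses. Stra8 and Tex101, the brightest of the markers, weigh most in that sum. In wild type replicate 1 the crosses stand at -1.14, between the VRK1-deficient values of -1.83 and -0.81, and the 5 genes are below 0 on the same array. Jag2, Hes5 and Nrarp nonetheless stand above every VRK1-deficient array there. The 5 genes are shown because they were lower in VRK1-deficient testes, and this array was close to the VRK1-deficient arrays over all tested probes.

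Wild type replicate 1 was the wild type array nearest to the VRK1-deficient mean in 6 of 10 members, Jag2, Dll1, Notch2, Notch3, Hes1 and Hey1, against 44.7% of all tested probes. The SD between wild type arrays was larger than that between VRK1-deficient arrays in 9 of 10 members, and in 78.3% of all tested probes. The wild type SDs of Jag2, Dll1 and Hey1 lay at percentiles 87.0, 94.1 and 86.9 of tested probes, and that of Notch4 lay at percentile 3.65.

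The 5 gene symbols most like Jag2 in their pattern over the 8 arrays were Kcnj4, Rnf212, Ctnnd2, Nr6a1 and 4931428F04Rik. Their Pearson r with Jag2 was 0.997, 0.996, 0.995, 0.994 and 0.994, as a description over 8 arrays that differ in genotype and share wild type replicate 1. Their log2 differences were -1.66, -1.14, -1.83, -0.92 and -0.63. The choice by correlation with Jag2 over both genotypes fixed this shared direction in advance, so it is no separate result.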

How the data were processed

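RNA was measured on 8 Agilent arrays, 4 wild type and 4 VRK1-deficient, at postnatal day 8. The authors extracted signals with Agilent Feature Extraction 9.5.3.1, per the labels, and deposited its processed signals, linear intensity values with the background subtracted and not scaled between arrays. The deposited value table held the same signals. Later steps used GeneSpring GX, with a normalization not given in the sources used.

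Outlier spots and controls were left out, and no spot was saturated. Log2 intensities minus the log2 75th percentile of each array were averaged over the spots of a probe. Probes that 4 or more of 8 arrays put well above background were compared with limma 3.58.1 (lmFit, eBayes) in R 4.3.3, with Benjamini-Hochberg adjustment over 26948 probes and a threshold of 0.05. A gene was represented by its brightest tested probe. Probes other than those of the members were paired with symbols through accession, symbol or synonym in a RefSeq gene table. Promoter windows came from RefSeq. The methods' t-test (Student, equal variances) was an alternative. It was also used with a fold of at least 2, which the methods do not state. Other alternatives were quantile normalization, a normexp correction with offset 50, no scaling, other filters on dim probes, slide and replicate blocks, each slide alone, each array left out, an intensity trend, and averaging a gene's probes.

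The named genes were the members, the called genes of the lists, the 2 genes of each list with the smallest p, Gdnf and Cyp26b1, and the 5 genes most like the called member. Further list genes are named for a call without wild type replicate 1 or for the filter on dim probes. The members and lists were chosen with earlier results of these data known. On simulated data from the 8 arrays, 84% of 200 probes with a log2 change of 1 to 2 were recovered among 26941 probes, with 9 false calls. Tables and figures used Python 3.11.15, pandas 2.3.3 and matplotlib 3.10.9.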

Additional observations from a re-analysis of the deposited data

Results flagged for a closer look

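An array was set apart where its gap to the nearest array of its genotype was large against the range of the 4 arrays (Dixon's ratio). Of 72 groups of 4 arrays, 4 were set apart in this way, and chance alone does this in about 1 of 20 groups. In Jag2 wild type, replicate 1 was lowest at -1.34 with the next array at -0.35 (ratio 0.889). In Notch1 wild type, replicate 1 was highest at -1.52 with the next array at -2.12 (ratio 0.845). In Notch3, VRK1-deficient replicate 4 was lowest at 0.15 with the next array at 0.57 (ratio 0.931). In Maml3, VRK1-deficient replicate 2 was lowest at -4.28 with the next array at -3.92 (ratio 0.884). The array values are log2 signals minus the 75th percentile.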

How the results depend on the processing

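The members called, the list genes called and all probes called are given in this order for each alternative. They were 1, 2 and 982 as reported (530 of them lower). They were 1, 1 and 797 with quantile normalization, 2, 2 and 916 without scaling (852 lower), 2, 3 and 1375 with normexp correction, 0, 0 and 17 with no filter on dim probes, and 2, 4 and 1376 with a filter on all 8 arrays. They were 1, 1 and 626 with slide as a block, 0, 0 and 3 on slide 1, 2, 4 and 1059 on slide 2, 2, 5 and 1920 with an intensity trend, and 1, 2 and 1054 with the mean of all probes. The 4 list genes on slide 2 include Hey2, which passed the filter mainly through the wild type arrays. The methods' t-test gave 0, 0 and 217 after Benjamini-Hochberg, and 2, 3 and 774 at their threshold with a fold of at least 2. With the replicate block they were 3, 5 and 2280. Same-numbered arrays had correlations of deviations of 0.468, 0.0735, 0.188 and -0.138, and not every array was most like its own number, so numbers were not taken as pairs. With 1 array left out they ranged from 0 to 4, from 0 to 15 and from 3 to 7641, the highest of each without wild type replicate 1. No scaling moved the median of all probes from 0.04 to -0.14. Jag2, Dll1, Hey1, Jag1, Dll4, Notch1 and Notch2 kept their direction under all 21 alternatives, through their brightest probes. The Notch2 probe A_52_P448796 ran from -0.18 to 0.22 over the alternatives. The Notch1 probe A_52_P183088 turned to 0.019 on slide 2. The direction turned for Notch4 (0.0044 with quantile normalization, 0.043 with normexp, 0.029 on slide 1, up to 0.025 and down to -0.043 with 1 array left out), Notch3 (-0.096 without scaling, -0.085 on slide 2, from -0.0076 to 0.21 with 1 array left out) and Hes1 (0.070 with normexp, 0.0070 on slide 2, from -0.25 to 0.049 with 1 array left out). It also turned for Adam10 (0.015 with normexp) and Cyp26b1 (0.017 on slide 2, from -0.094 to 0.067 with 1 array left out). The call of Nrarp was lost under 16 of the 21 alternatives, and those of Jag2 and Hes5 under 10 each. Hey1, not called as reported, was called under 8 of the 21. The cause was not tested. The signal of Jag1's second probe over background limits what it can show.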
